A study of Mus musculus with 5 samples.

Results

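Mitochondrial ribosomal protein genes, which encode the protein part of the ribosome inside mitochondria, were compared between haematopoietic cells that lacked the Rb family and wild-type cells. They were taken by name: every probe set whose platform annotation gives a single gene symbol starting with Mrpl (large subunit) or Mrps (small subunit) followed by a digit, with pseudogene symbols left out. The rule found 156 of 45037 probe sets, 104 for the large and 52 for the small subunit. They cover 76 of the 18193 genes with a probe set of their own, 47 of the large and 29 of the small subunit. Mrpl30 and Mrpl53, the other 2 of 78 protein-coding RefSeq genes with such symbols, are not analysed here. Neither are 4 probe sets that carry such a symbol beside others.

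The RNA came from KLS cells, sorted as positive for c-Kit and Sca-1 and negative for lineage markers, a fraction rich in stem cells and early progenitors of the blood, and was hybridised to Affymetrix mouse arrays. The 3 deficient arrays were from mice of genotype Rb -/- p130 -/- p107-/-, without the 3 pocket proteins that bind E2F transcription factors and hold back the cell cycle. The 2 arrays titled wild type were from Rb +/+ p130 +/+ p107+/- mice, so they too had lost 1 copy of p107. The labels give the same induction protocol for both groups, with the Mx1Cre system, a recombinase under an interferon-responsive promoter that is active in many cell types besides stem cells; it was switched on in mice aged 6 weeks, 2 months before the sort. They do not say whether the wild-type mice carried the Cre, and an effect of Cre itself was not tested. The labels name no treatment beyond this and do not say whether each array held 1 animal or a pool, so every p-value measures the spread between these arrays, which may be partly technical. The design text adds that the mice carried floxed alleles of the family, and that of 6 arrays hybridised 1 was left out for its background and control values. Array medians of log2 intensity ran from 4.71 to 4.74. Of 8 sort markers 6 had a probe set of their own, and 0 of them passed the test; Ly6a, which encodes Sca-1, was not among them. Kit averaged 11.02 ± 0.21 on deficient arrays and 10.95 ± 0.18 on wild-type arrays (log2 intensity, SD, n = 3 and 2). Deficient minus wild type on that scale, Thy1 differed by 0.86, Slamf1 by -0.33, Flt3 by -0.32, Cd34 by 0.03 and Cd48 by 0.02. With Kit, these are all the sort markers measured. Thy1 read 8.93, 9.94 and 9.72 on the deficient arrays, against 7.84 and 9.49 on the wild-type arrays.

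The mitochondrial ribosome translates the few messenger RNAs of mitochondrial DNA, all of which encode core subunits of the respiratory chain and ATP synthase. Its ribosomal RNAs come from the mitochondrial genome, but every one of its proteins is encoded in the nucleus, made in the cytosol and imported, and many have no counterpart in bacteria. Mouse haematopoietic stem cells are known to depend on respiration less than the progenitors that arise from them. Nuclear genes for mitochondrial proteins often have binding sites of NRF1, of ETS factors such as GABPA and of YY1 close to their start sites.

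To show what such start sites look like, windows from 250 bases before to 50 bases after the start of 7 genes are printed from RefSeq (build GRCm38.p6, 5′ to 3′ on the gene's strand). Mrpl49 at chr19:6057706-6058005 (minus strand), Mrpl23 at chr7:142532782-142533081 (plus strand), Mrps6 at chr16:92058086-92058385 (plus strand) and Mrps14 at chr1:160194965-160195264 (plus strand) had the smallest p-values of their subunits. Mrpl52 at chr14:54426659-54426958 (plus strand) had 3 probe sets that read lower, and Mrpl18 at chr17:12916042-12916341 (minus strand) and Mrps23 at chr11:88204138-88204437 (plus strand) are the members whose windows hold a tested E2F motif; these 3 were chosen after values or windows were seen. Capitals mark every match on either strand to GCGCA joined to its reverse complement (NRF1), CCGGAAG (ETS), AAGATGGC (YY1), TTTCGCGC or TTTGGCGC (E2F) and CACGTG (the E-box bound by MYC).
Mrpl49: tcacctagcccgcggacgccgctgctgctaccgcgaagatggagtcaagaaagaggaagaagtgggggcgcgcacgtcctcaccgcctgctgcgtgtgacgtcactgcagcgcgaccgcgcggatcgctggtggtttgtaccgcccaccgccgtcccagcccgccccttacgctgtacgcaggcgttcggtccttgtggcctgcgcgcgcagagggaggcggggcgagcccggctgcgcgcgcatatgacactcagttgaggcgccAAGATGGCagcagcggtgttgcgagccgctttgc
Mrpl23: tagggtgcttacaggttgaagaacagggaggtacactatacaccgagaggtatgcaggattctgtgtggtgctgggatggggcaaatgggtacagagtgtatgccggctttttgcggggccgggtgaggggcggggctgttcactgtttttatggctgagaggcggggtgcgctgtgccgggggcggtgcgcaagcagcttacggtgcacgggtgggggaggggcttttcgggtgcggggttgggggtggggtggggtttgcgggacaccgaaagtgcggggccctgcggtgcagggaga
Mrpl52: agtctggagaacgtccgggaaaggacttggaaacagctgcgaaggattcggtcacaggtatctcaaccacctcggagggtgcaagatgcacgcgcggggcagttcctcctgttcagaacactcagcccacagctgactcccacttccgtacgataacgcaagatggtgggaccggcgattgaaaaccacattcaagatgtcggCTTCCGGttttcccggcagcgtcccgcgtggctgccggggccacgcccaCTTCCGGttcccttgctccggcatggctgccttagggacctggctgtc
Mrpl18: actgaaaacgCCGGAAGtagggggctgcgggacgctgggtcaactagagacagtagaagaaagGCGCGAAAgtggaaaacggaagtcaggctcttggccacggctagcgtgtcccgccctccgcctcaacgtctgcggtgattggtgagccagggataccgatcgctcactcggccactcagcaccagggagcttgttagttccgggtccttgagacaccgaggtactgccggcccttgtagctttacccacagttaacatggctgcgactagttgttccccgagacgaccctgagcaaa
Mrps6: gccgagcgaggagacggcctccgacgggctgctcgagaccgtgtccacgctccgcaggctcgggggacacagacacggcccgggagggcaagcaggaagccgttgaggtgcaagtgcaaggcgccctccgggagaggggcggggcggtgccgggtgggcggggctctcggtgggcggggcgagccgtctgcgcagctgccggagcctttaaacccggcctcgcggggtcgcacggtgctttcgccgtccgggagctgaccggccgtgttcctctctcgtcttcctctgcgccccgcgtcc
Mrps14: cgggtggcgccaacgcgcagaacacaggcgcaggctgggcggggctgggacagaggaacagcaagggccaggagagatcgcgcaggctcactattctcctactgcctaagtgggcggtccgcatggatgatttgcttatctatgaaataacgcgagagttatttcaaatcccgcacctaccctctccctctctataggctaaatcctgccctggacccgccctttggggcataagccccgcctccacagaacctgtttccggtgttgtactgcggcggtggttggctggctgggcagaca
Mrps23: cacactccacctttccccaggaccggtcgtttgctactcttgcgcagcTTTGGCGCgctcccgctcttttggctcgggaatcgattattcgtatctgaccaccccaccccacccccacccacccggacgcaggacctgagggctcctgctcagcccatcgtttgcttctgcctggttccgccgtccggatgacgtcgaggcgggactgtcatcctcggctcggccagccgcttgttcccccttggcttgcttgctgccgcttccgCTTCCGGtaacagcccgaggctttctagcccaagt

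Of the 76 genes, 67 had a window in the RefSeq table, and 38 of these held at least 1 of the motifs; no 2 matches overlapped. The ETS letters were in 25 of 73 member windows (34.2%), where 11.6% of the windows of all protein-coding genes and 8.86% of all windows of that length held them. The YY1 letters were in 12 (16.4%, against 3.05% of protein-coding and 2.75% of all windows). In the Mrpl49 window the YY1 match starts 16 bases after the start site and holds an ATG. The NRF1 letters were in 3 windows (4.11%, against 1.33% and 0.971%), those of Mrpl9, Mrpl32 and Mrpl39. The E-box was in 7 windows of 5 genes (9.59%, against 7.84% and 7.15%), 3 of them overlapping windows of Mrpl2 that share 1 match. Counted by gene, the E-box share was 7.46% of members, below the 8.91% of protein-coding genes and 8.09% of all genes. The E2F letters were in 2 windows (2.74%, against 1.05% and 0.813%). These shares describe letters in a window, not binding, and several windows belong to the same gene.

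The first question was whether loss of the Rb family came with another level of these genes. No member passed the threshold in either direction, on 156 probe sets or on 76 genes (limma, Benjamini-Hochberg adjusted p under 0.05), where 0.164% of all probe sets passed as higher and 0.326% as lower (0.491% in all), and 0.83% of all genes passed as higher and 1.41% as lower (2.24% in all). In sorted cells measured in bulk, fewer cells of a type and less RNA per cell cannot be told apart. The smallest adjusted p was 0.143 over the member probe sets and 0.0996 over the member genes. At an unadjusted p under 0.05, 3 probe sets read higher and 11 lower in deficient cells, which are 1.92% and 7.05% of the members, against 7.28% and 6.82% of all probe sets (14.1% in either direction). When each gene was represented by its brightest probe set, 0 genes read higher and 6 lower at that level, against 8.79% and 9.86% of all genes (18.7% in either direction). The array groups did not overlap for 18 of the 76 genes (6 higher and 12 lower in deficient cells), or 23.7%, where 16.5% of all genes lay higher and 18.6% lower without overlap (35.1% in all). Among probe sets 16 lay higher and 21 lower without overlap, again 23.7%, against 15.4% and 15.2% of all probe sets (30.5%).

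Differences are given as deficient minus wild type on the log2 intensity scale, from 1 probe set per gene. They ran from -0.49 to 0.31 over the 76 genes, with a median of -0.03 and an interquartile range from -0.17 to 0.11. Over all genes the median was -0.01, the interquartile range ran from -0.16 to 0.14, and the extremes were -7.88 and 4.10. No member differed by more than 0.5, as 13.5% of all genes did. The 95% interval of the difference lay inside a 2-fold change for all 76 members, as for 86.7% of all genes, and inside a 1.5-fold change for 55 of them (72.4%, against 58.6% of all genes). Intervals are per gene and not adjusted for the number of genes. In the plot of each gene's difference no interval reaches the dotted lines.

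**Figure D1:**
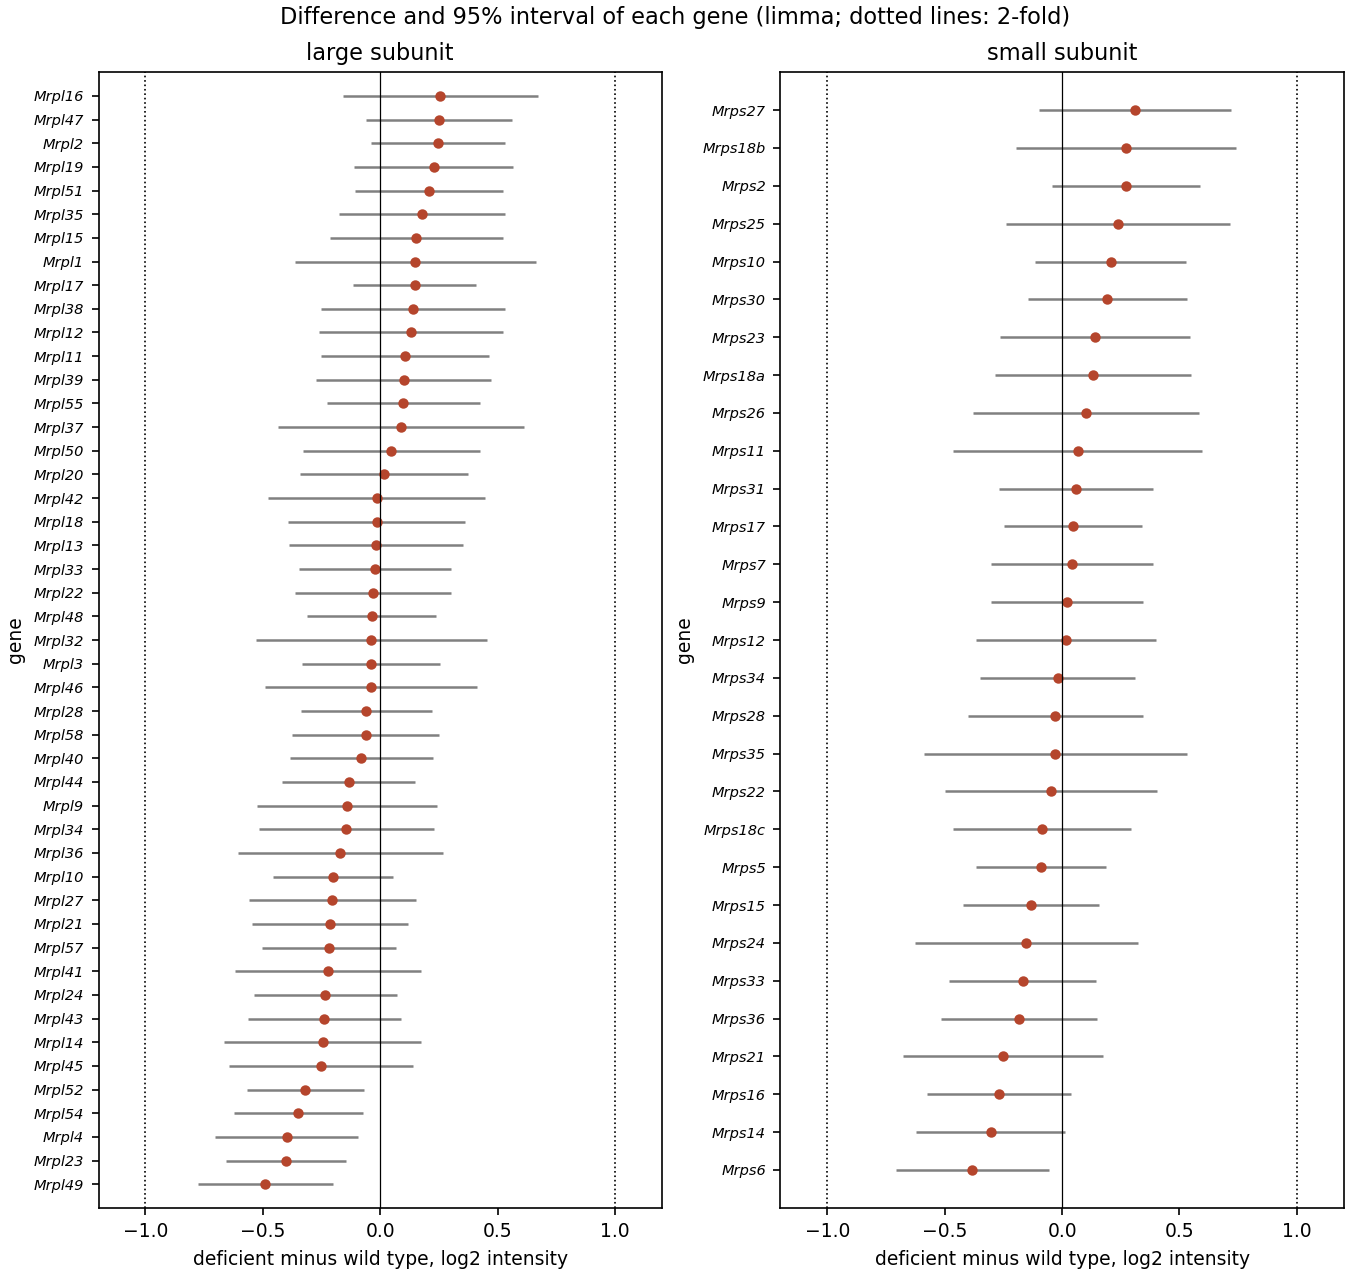
Difference in log2 intensity, deficient minus wild type (horizontal axis), for each of the 47 large subunit genes (left) and 29 small subunit genes (right), with 95% intervals from limma and dotted lines at 2-fold. Differences run from -0.49 for Mrpl49 to 0.31 for Mrps27, and the intervals of 6 genes, Mrpl49, Mrpl23, Mrpl4, Mrpl54, Mrpl52 and Mrps6, lie below 0.

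The subunits were then set side by side. The large subunit genes had a median difference of -0.04, with 17 of 47 higher on average in deficient cells, and the small subunit genes 0.02, with 15 of 29 higher. The median level of the large subunit genes was 10.12, 10.09 and 10.15 on the deficient arrays, against 10.10 and 10.26 on the wild-type arrays. That of the small subunit genes was 9.95, 10.09 and 9.86 on the deficient arrays, against 9.91 and 10.16 on the wild-type arrays. In both subunits all 3 deficient arrays lay below wild type 2, and 1 of them lay below wild type 1 as well, deficient 2 for the large and deficient 3 for the small subunit. The large subunit median minus the small subunit median was 0.17, 0.01 and 0.29 on the deficient arrays, against 0.19 and 0.10 on the wild-type arrays, and these values overlap between the groups. Structures of human and porcine mitochondrial ribosomes place the proteins of Mrps18a and Mrps30 in the large subunit, and the protein of Mrps36 is now assigned to a dehydrogenase complex rather than to the ribosome. With Mrps18a and Mrps30 moved and Mrps36 left out, the large subunit median difference was -0.04 and the small subunit median difference -0.00138.

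The 2 wild-type arrays stood apart from each other. Wild type 2 read higher than wild type 1 for 75 of the 76 genes, Mrps2 being the exception, with a median gap of 0.30; over all genes 51.4% read higher on wild type 2, with a median gap of 0.01. The direction of the members as a group depended on which wild-type array was used. Without wild type 1 the median difference was -0.16 and 12 of 76 genes were higher in deficient cells. Without wild type 2 it was 0.15 and 52 were higher. No member passed the threshold in either case, nor with any deficient array left out. Nuclear genes of the respiratory chain and ATP synthase, the complexes to which the products of mitochondrial translation belong, read higher on wild type 2 for 80 of 91 (median gap 0.18), and cytosolic ribosomal protein genes for 31 of 49 (median gap 0.03). Median levels of the cytosolic list were 13.94 to 14.06 over the arrays, against 9.94 to 10.24 for the members. Whether so high a signal narrows its gaps was not tested. Of 11 neutrophil markers 11, and of 11 proliferation markers 10, also read higher on wild type 2, and their part in the gap was not tested. In the plot of members by array, the medians of the 2 wild-type arrays lie at opposite ends of both panels.

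**Figure D2:**
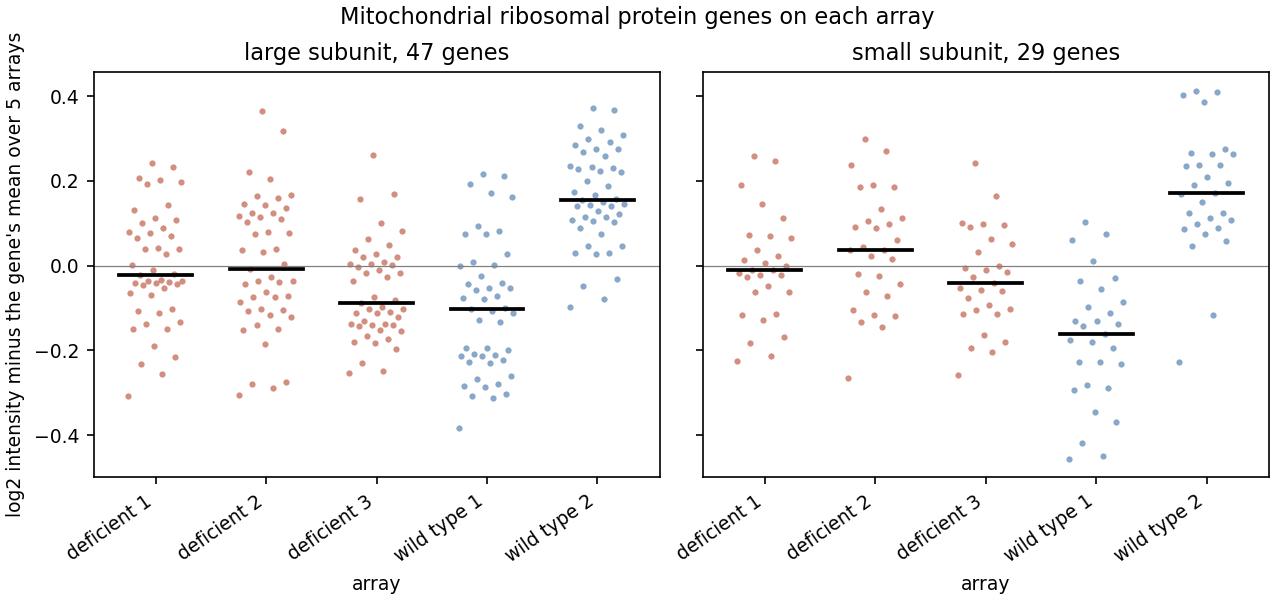
Log2 intensity of each gene minus that gene's mean over the 5 arrays (vertical axis) on each array (horizontal axis), for 47 large subunit genes (left) and 29 small subunit genes (right). Points are genes and black bars are medians: wild type 2 lies highest and wild type 1 lowest in both panels, with the 3 deficient arrays between them.

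The 6 genes with an unadjusted p under 0.05 all read lower in deficient cells, and 5 belong to the large subunit. Mrpl49, a large subunit protein without a bacterial counterpart, read 8.24, 8.14 and 8.32 on the deficient arrays, against 8.64 and 8.80 on the wild-type arrays. Every deficient array lay below both wild-type arrays, with a difference of -0.49 (SE 0.12, 95% interval -0.78 to -0.20, limma unadjusted p = 0.00580, adjusted p = 0.0996), which is 0.712 times the wild-type level. Mrpl23, whose protein sits at the exit of the tunnel through which the new chain leaves, read 9.67, 9.74 and 9.77 on the deficient arrays, against 10.10 and 10.16 on the wild-type arrays. The groups did not overlap and differed by -0.40 (SE 0.11, adjusted p = 0.117). Mrpl4, whose protein lines that tunnel, read 10.56, 10.32 and 10.53 on the deficient arrays, against 10.80 and 10.94 on the wild-type arrays, a difference of -0.40 (SE 0.13, adjusted p = 0.167) in which deficient 2 was the lowest array.

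Mrpl52, a protein of the central protuberance, which faces the head of the small subunit, read 11.66, 11.69 and 11.69 on the deficient arrays, against 11.97 and 12.03 on the wild-type arrays. The groups did not overlap and differed by -0.32 (SE 0.10, adjusted p = 0.174). Mrpl54, another protein without a bacterial counterpart, read 7.99, 8.10 and 7.91 on the deficient arrays, against 8.33 and 8.37 on the wild-type arrays, a difference of -0.35 (SE 0.11, adjusted p = 0.175). The small subunit gene was Mrps6, whose protein belongs to the platform, with 10.13, 10.22 and 10.26 on the deficient arrays, against 10.43 and 10.74 on the wild-type arrays. Its difference of -0.38 (SE 0.13, adjusted p = 0.201) was -0.23 without wild type 2 and -0.54 without wild type 1. With each array left out in turn the difference ran from -0.57 to -0.41 for Mrpl49, -0.43 to -0.37 for Mrpl23, -0.47 to -0.33 for Mrpl4, -0.35 to -0.29 for Mrpl52 and -0.40 to -0.30 for Mrpl54.

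**Figure D3:**
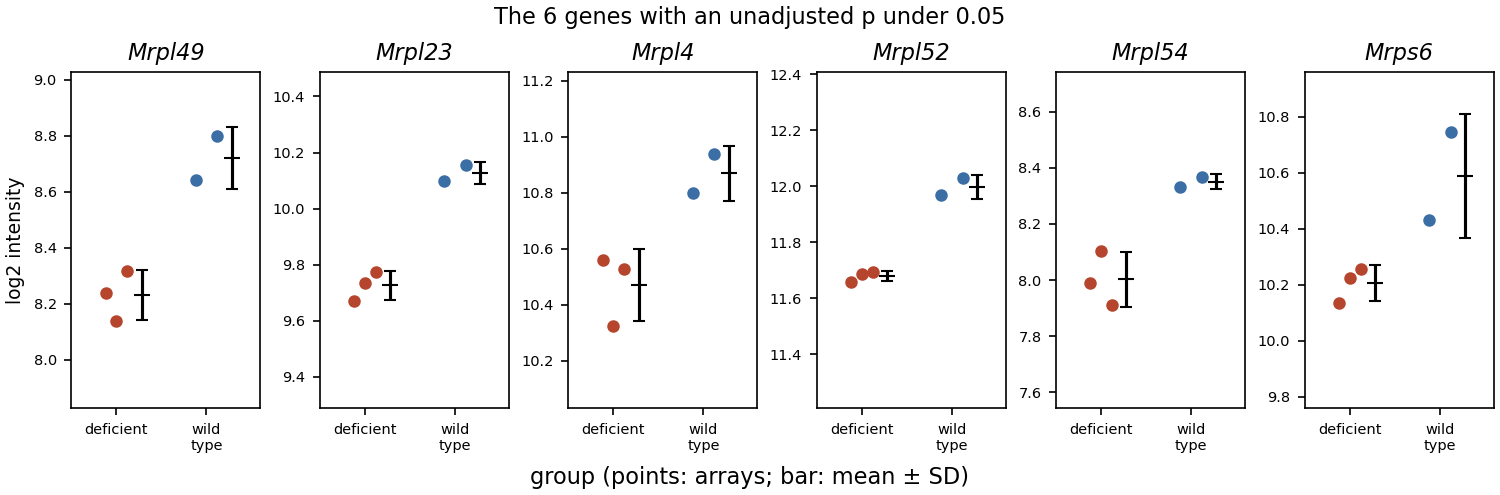
Log2 intensity (vertical axes, each spanning the same range of 1.2 log2 units) of Mrpl49, Mrpl23, Mrpl4, Mrpl52, Mrpl54 and Mrps6 on the 3 deficient arrays (left in each panel) and 2 wild-type arrays (right), with mean and SD beside the points. In each panel every deficient array lies below both wild-type arrays, and the adjusted p-values run from 0.0996 to 0.201.

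Other large subunit genes were followed by the place of their protein in the ribosome. The stalk recruits translation factors, and its 3 genes had differences of -0.20 for Mrpl10, the stalk base, 0.10 for Mrpl11 and 0.13 for Mrpl12, the stalk protein itself, which is also known to bind the mitochondrial RNA polymerase. Mrpl12 read 10.56, 10.63 and 10.53 on the deficient arrays, against 10.21 and 10.68 on the wild-type arrays. The deficient arrays lie between the wild-type arrays, so Mrpl12 did not differ beyond their spread (adjusted p = 0.764, 95% interval -0.26 to 0.52). Mrpl10 read 8.88, 8.81 and 8.82 on the deficient arrays, against 8.99 and 9.09 on the wild-type arrays, with groups that do not overlap but a difference that did not pass (adjusted p = 0.394).

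Of the 9 genes of the tunnel and the region of its exit, 6 were lower and 3 higher on average, with a median of -0.13. Beside Mrpl4 and Mrpl23, Mrpl24 differed by -0.23, Mrpl45, whose protein anchors the ribosome to the inner membrane, by -0.25 (95% interval -0.64 to 0.14), Mrpl44, an RNase III-like protein, by -0.13 and Mrpl22 by -0.03. The higher ones were Mrpl47 (0.25), Mrpl17 (0.15) and Mrpl39 (0.10). Mrpl47 read 9.60, 9.73 and 9.55 on the deficient arrays, against 9.26 and 9.50 on the wild-type arrays. Its groups did not overlap, and the adjusted p was 0.380. No gene of this place passed.

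The central protuberance had 7 of 8 genes lower on average and a median of -0.05. Beside Mrpl52, Mrpl58, a peptidyl-tRNA hydrolase built into the ribosome, differed by -0.06 (95% interval -0.37 to 0.25), Mrpl18 by -0.02, Mrpl48 by -0.04, Mrpl46 by -0.04, Mrpl40 by -0.08 and Mrpl27 by -0.20, with Mrpl38 at 0.14. Near the catalytic centre, Mrpl2 and Mrpl16 read higher (0.24 and 0.26), Mrpl14 lower (-0.24) and Mrpl3 was at -0.04 (95% interval -0.33 to 0.26). Mrpl2 read 10.76, 10.93 and 10.95 on the deficient arrays, against 10.59 and 10.68 on the wild-type arrays, each deficient array above both wild-type arrays (adjusted p = 0.345). Outside these places, Mrpl51 (0.21) read higher without overlap and Mrpl57 (-0.22) lower without overlap, and Mrpl41 differed by -0.22, Mrpl1 by 0.15 and Mrpl55 by 0.10. None passed the threshold.

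In the small subunit the platform genes Mrps6, Mrps11 and Mrps21 with Mrps18b and Mrps18c had a median of -0.09, the body with the decoding site -0.09 and the head with its junction 0.03. Mrps12, whose protein lines the decoding site, read 10.15, 10.25 and 10.10 on the deficient arrays, against 9.94 and 10.37 on the wild-type arrays. The deficient values lie between the wild-type values, with a difference of 0.02 (95% interval -0.37 to 0.40). Mrps14, a head protein, read 11.77, 11.64 and 11.50 on the deficient arrays, against 11.86 and 12.02 on the wild-type arrays, lower on every deficient array (difference -0.30, SE 0.13, adjusted p = 0.288). Mrps2, at the junction of head and body, read 10.83, 10.55 and 10.66 on the deficient arrays, against 10.48 and 10.34 on the wild-type arrays, higher on every deficient array (difference 0.27, adjusted p = 0.346).

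Mrps16, a body protein, read 10.40, 10.28 and 10.19 on the deficient arrays, against 10.46 and 10.66 on the wild-type arrays, lower without overlap (difference -0.27, adjusted p = 0.333), and Mrps10, a head protein, read higher without overlap (0.21, adjusted p = 0.494). Mrps27, a pentatricopeptide repeat protein, had the highest difference of all members (0.31, SE 0.17), which was 0.08 without wild type 1 and 0.54 without wild type 2. The paralogues Mrps18a, Mrps18b and Mrps18c, which descend from a single bacterial protein, differed by 0.13, 0.27 and -0.09. Mrps18b read 9.85, 9.59 and 9.71 on the deficient arrays, against 9.16 and 9.73 on the wild-type arrays, so wild type 2 lay among the deficient arrays. Mrps24 (-0.15), Mrps26 (0.10), Mrps21 (-0.25), Mrps22 (-0.05), Mrps30 (0.19) and Mrps36 (-0.18) did not pass either. The adjusted p-values of all small subunit genes were at least 0.201.

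Genes were also divided by symbol number (large up to 36, small up to 21, and Mrps24), a rough guide to proteins inherited from the bacterial ribosome. The rule goes by name and was not checked against sequence, so the other class may hold inherited proteins too. The 44 genes named after a bacterial counterpart had a median difference of -0.03 and the 32 others -0.03. The median over all genes was -0.01. In each class 3 genes had an unadjusted p under 0.05 (limma), all lower. Over all genes 9.86% were lower and 8.79% higher at that level, so these counts are not read as a result about either class.

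Several genes had more than 1 probe set, which allows a check within the gene. Of 42 such genes, 21 had probe sets that differed in sign. The 3 brighter probe sets of Mrpl52 differed by -0.32, -0.43 and -0.40, each with no overlap, and the dimmest by -0.01. For Mrpl48, a protein of the central protuberance, 2 bright probe sets went apart. The first read 9.60, 9.73 and 9.71 on the deficient arrays, against 10.04 and 10.10 on the wild-type arrays, a difference of -0.40 (unadjusted p = 0.00961, adjusted p = 0.175), and the second, used for the gene, read 9.84, 9.85 and 9.90 on the deficient arrays, against 9.80 and 9.99 on the wild-type arrays, a difference of -0.04. The second probe sets of Mrpl49, Mrpl54 and Mrps6 differed by -0.21, -0.01 and -0.10; that of Mrpl54 lay below the array medians, where RMA compresses differences.

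Mrpl15 had the most probe sets, 8, and they ran from -0.55 to 0.77, while the 3 brightest stood between 0.04 and 0.15. The 3 member probe sets that read higher at an unadjusted p under 0.05 were 1 each of Mrpl13 (0.44), Mrpl17 (0.32) and Mrps9 (0.67), whereas the brightest probe sets of those genes differed by -0.02, 0.15 and 0.02. The raised Mrpl13 probe set read 3.32 to 4.03, below the array medians on all 5 arrays. That of Mrpl17 read 4.31 to 4.81, close to those medians. On the raised Mrps9 probe set the deficient arrays read 6.84, 6.21 and 7.06, against 5.95 and 6.11 on the wild-type arrays. Signs also differed among the probe sets of Mrpl1, Mrpl3, Mrpl21, Mrpl33, Mrpl34, Mrpl35, Mrpl38, Mrpl41, Mrpl42, Mrpl50, Mrpl51, Mrpl57 and Mrpl58 in the large subunit and of Mrps5, Mrps11, Mrps14, Mrps21 and Mrps25 in the small subunit. Over these 18 genes the probe sets ran from -0.41 to 0.35. Of the 156 member probe sets, 17 lay below the array medians on all 5 arrays, and none of these was the probe set used for its gene.

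The genes that build, feed and regulate the mitochondrial ribosome were compared from lists of their own. For these and the later lists, the shares over all genes at an unadjusted p under 0.05 (limma) were 8.79% higher and 9.86% lower. At the adjusted threshold they were 0.83% higher and 1.41% lower. Of 10 measured mitochondrial translation factors 0 passed (limma; 3 at an unadjusted p under 0.05, all higher), the smallest adjusted p being 0.184 for the initiation factor Mtif2 (0.58), and the elongation factor Gfm1 differed by 0.46. Of 25 assembly and ribosomal RNA modification genes 0 passed (at an unadjusted p under 0.05, 3 were higher and 3 lower): the assembly GTPase genes Gtpbp10 and Noa1 differed by 0.59 (adjusted p = 0.0694) and 0.31, Malsu1, which is known from humans to keep the subunits apart during assembly, by -0.36, and Fastkd2 by 0.54. Dap3, Chchd1 and Ptcd3, small subunit proteins with other symbols, differed by 0.02, -0.15 and 0.09. Of 19 mitochondrial aminoacyl-tRNA synthetase and amidotransferase genes 1 fell, the prolyl-tRNA synthetase gene Pars2, and 11 were higher on average. At an unadjusted p under 0.05, 3 were higher without overlap, Iars2 (0.57), Qrsl1 (0.54) and Vars2 (0.56), and Wars2 (-0.59) was lower beside Pars2. Pars2 read 7.64, 7.65 and 7.67 on the deficient arrays, against 8.21 and 8.40 on the wild-type arrays, a difference of -0.65 (limma over all genes, adjusted p = 0.0473), with no overlap between the groups. Pars2 did not pass with any array left out (adjusted p 0.108 to 0.142).

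Regulators of mitochondrial genes held the 2 genes of these lists that rose. Of 16 genes of mitochondrial DNA upkeep and transcription 0 passed (3 at an unadjusted p under 0.05, all higher), with the mitochondrial RNA polymerase gene Polrmt at 9.98, 9.59 and 9.82 on the deficient arrays, against 8.91 and 9.04 on the wild-type arrays. The groups did not overlap, and the difference of 0.82 just missed the threshold (adjusted p = 0.0534); Lrpprc, which stabilises mitochondrial messenger RNA, differed by 0.64 (adjusted p = 0.0823). Of 10 regulators of nuclear genes for mitochondria 2 rose, and 9 of 10 were higher on average, with a median of 0.36. Pprc1, a coactivator related to PGC-1, read 9.55, 9.26 and 9.49 on the deficient arrays, against 8.33 and 8.58 on the wild-type arrays (difference 0.98, adjusted p = 0.0356), and the transcriptional cofactor gene Hcfc1 read 9.94, 10.07 and 9.81 on the deficient arrays, against 9.23 and 9.11 on the wild-type arrays (difference 0.77, adjusted p = 0.0444). With any array left out neither passed (adjusted p 0.0628 to 0.131 for Pprc1 and 0.0929 to 0.132 for Hcfc1). Ppargc1b differed by 0.94 (adjusted p = 0.0543), Myc by 0.58, Yy1 by 0.40, Gabpa by 0.33 and Nrf1 by 0.03.

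Of 91 nuclear-encoded genes of the respiratory chain and ATP synthase 1 fell, Cox6a2, a muscle form of a cytochrome oxidase subunit (-1.26, adjusted p = 0.0341, and 0.0630 to 0.131 with an array left out), and the list median was -0.11. That median was -0.20 without wild type 1 and -0.00812 without wild type 2. At an unadjusted p under 0.05 (limma), 14 of the 91 were lower and 1 higher, against 9.86% and 8.79% of all genes. The higher one was Ndufaf4 (0.85), an assembly factor of complex I. Between the same left-out fits the medians of translation factors (-0.11 and 0.17) and assembly genes (-0.09 and 0.08) changed sign, as did that of mitochondrial DNA upkeep and transcription (-0.03 and 0.12). Of 49 cytosolic ribosomal protein genes 0 passed (8 at an unadjusted p under 0.05, all lower), with a median of -0.10 and 42 lower on average. That list was taken by symbol, so it holds paralogues such as Rpl39l and Rpl3l. Its median level was high, 13.94 to 14.06 over the arrays, but some of its probe sets were dim, such as that of Rps16 (mean 3.38 on deficient and 3.47 on wild-type arrays). Of 11 proliferation markers 3 rose, with a median of 0.63; with an array left out Bub1 passed in 4 of 5 fits, Mki67 in 2 and Plk1 in 0. None of these differences between lists was tested. In the plot of differences by list, the medians of both mitochondrial ribosomal subunits lie close to that of all genes, and proliferation markers lie to the right of them.

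**Figure D4:**
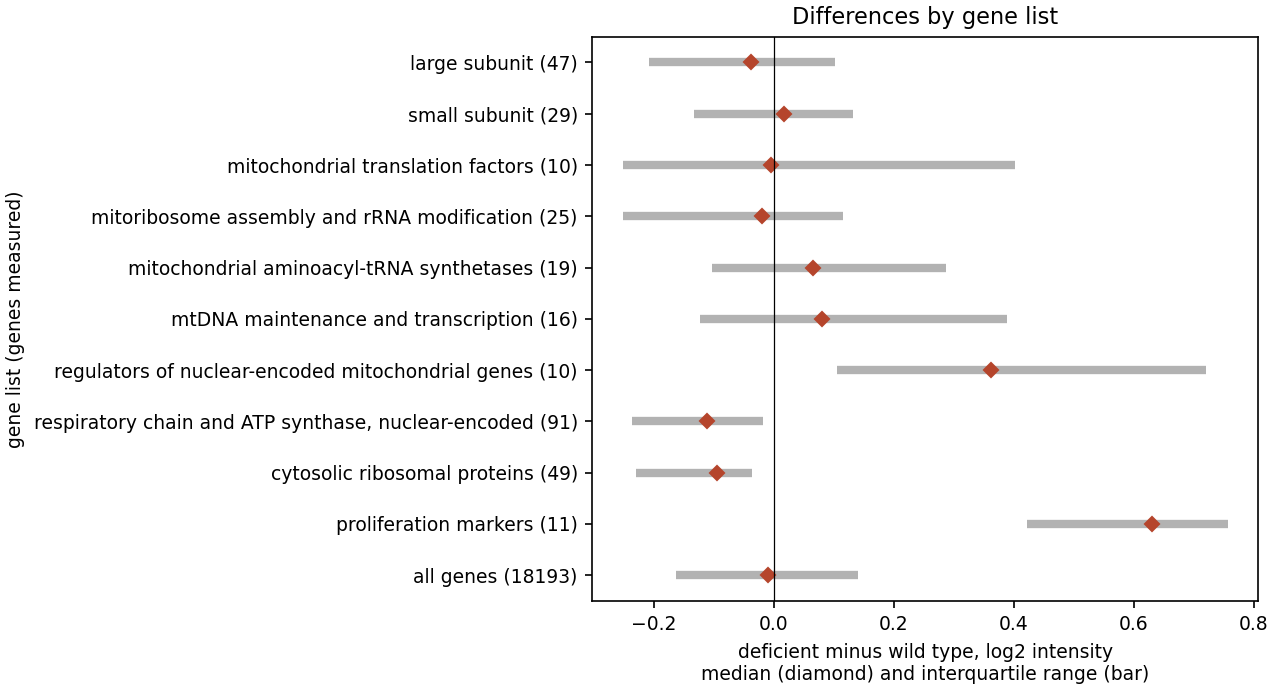
Median difference in log2 intensity, deficient minus wild type (diamonds, horizontal axis), and the interquartile range (bars) for the gene lists named in the text and for all 18193 genes. The large subunit lies at -0.04 and the small subunit at 0.02, proliferation markers at 0.63 and regulators of nuclear genes for mitochondria at 0.36.

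Markers of other cells also differed between the groups. Of 11 neutrophil markers 8 fell, of 10 B and plasma cell markers 3, of 9 T and NK cell markers 2, of 10 macrophage and dendritic cell markers 1 and of 6 erythroid markers 0 (1 at an unadjusted p under 0.05). With each array left out, Ngp, S100a9, Cd177, Lcn2, Camp, S100a8, Igha, Jchain and Klrd1 passed every time, and the other 5 did not. Other members of the lists lay the other way: the granule protease genes Elane (0.81) and Prtn3 (0.46), Mpo (0.39) and, among T and NK cell markers, Nkg7 (0.63) were higher in deficient cells without overlap, at an unadjusted p under 0.05, and did not pass (limma, adjusted p 0.125 to 0.188). Summed over the 11 neutrophil markers, intensity was 43781 to 49269 on deficient arrays and 78941 to 95155 on wild-type arrays, and over the 10 B and plasma cell markers it was 1193 to 1296 on deficient arrays and 15958 to 28980 on wild-type arrays. Over the 10 macrophage and dendritic cell markers it was 2230 to 2707 on deficient arrays and 5058 to 7763 on wild-type arrays, and over 6 erythroid markers 5365 to 11826 on deficient arrays and 11636 to 12580 on wild-type arrays. Over 9 T and NK cell markers it was 2461 to 3234 on deficient arrays and 1828 to 2549 on wild-type arrays, and over 11 proliferation markers 27279 to 31672 on deficient arrays and 16450 to 19613 on wild-type arrays. Such sums weigh bright genes most. Nkg7 (mean 11.29 on deficient and 10.66 on wild-type arrays) made up most of the T and NK cell sum, while 6 of the 9 were lower on average. On deficient arrays Mpo (mean 14.38), Prtn3 (14.04) and Elane (12.63) made up most of the neutrophil sum, the next marker being Lcn2 (9.34). Array values have no true zero, and 2 B and plasma cell, 2 erythroid and 1 macrophage or dendritic marker lay below the array medians on every array. The part of these cells in the members' values was not tested.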

How the data were processed

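The authors deposited 1 intensity value per probe set and array on a linear scale, and per the submitters' processing notes RMA was used; no RMA version is named there. Because RMA forces all arrays to a common distribution, a change in total messenger RNA is invisible, and dim probe sets show smaller differences than their transcripts. All 5 columns were matched to samples by accession and grouped by title, and no 2 arrays were treated as 1.

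Log2 was taken of the deposited intensity, 64 AFFX control probe sets were left out, and limma 3.58.1 (lmFit, eBayes, two-sided) in R 4.3.3 was fitted on all 5 arrays without a covariate, with Benjamini-Hochberg adjustment over 45037 probe sets, or over 18193 genes with the brightest probe set each. Intervals are limma's. The fit was tested on simulated data. For arrays no depth applies: their number limits the precision.

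Genes were named through GEO's platform annotation. Named are, per subunit, the 8 smallest p-values, the 3 highest and 3 lowest mean signals, genes whose probe sets differ in sign, the Mrps18 paralogues and members of known place; from the other lists, genes with the smallest p-values. The members and lists were chosen with earlier results of these data known. Chosen after the values were seen were the ribosome places, the motifs, the promoters of Mrpl52, Mrpl18 and Mrps23, the fold limits set beside the intervals, some named genes (Mrpl16, Mrpl17, Mrpl22, Mrpl27, Mrpl40, Mrpl46, Mrpl48, Mrps30, Yy1, Gabpa, Nrf1, Vars2, Ndufaf4, Elane, Prtn3, Mpo and Nkg7) and the alternative that assigns Mrps18a, Mrps30 and Mrps36 by structure. Replicate numbers shared by the groups were not treated as pairs (correlation of deviations -0.05 and -0.02 between same-numbered arrays). The deviations of the 2 wild-type arrays mirror each other, so these values cannot exclude pairing. Motifs were searched with Python 3.11.15. Alternatives were other normalizations, filters, variance priors, array weights, a replicate block, each array left out and the mean of a gene's probe sets.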

Additional observations from a re-analysis of the deposited data

How the results depend on the processing

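No member gene or probe set passed the threshold under any of 16 alternatives, and no member probe set did at an adjusted p under 0.1, where Mrpl49 was at 0.0996 in the fit of 1 probe set per gene. Over the alternatives 3 genes came below 0.1, with smallest adjusted p-values of 0.0870 for Mrpl52, 0.0871 for Mrpl49 and 0.0887 for Mrpl23. Over the alternatives that kept all arrays, the large subunit median ran from -0.08 to -0.02, the small from -0.02 to 0.03. With an array left out, they ran from -0.16 to 0.06 and from -0.14 to 0.17. The replicate block is counted here among the fits with an array left out. The lowest and the highest value came without wild type 1 and without wild type 2. The large minus small median stayed negative under every alternative, between -0.10 and -0.02. Signs moved with the wild-type array left out: 12 of 76 genes were higher on average without wild type 1, and 52 without wild type 2. At an unadjusted p under 0.05 (limma), 3 probe sets read higher in the fit reported. Leaving out deficient 1, 2 or 3 gave 0, 5 and 1, and leaving out dim probe sets gave 1. Shares over all probe sets in the alternative fits are not given here, so these counts are not read as a result about the members. The replicate block used only arrays numbered 1 and 2, so it left out deficient 3. Its subunit medians, -0.007 and 0.02, were those of the fit without deficient 3. The block gave 5 probe sets and 2 genes lower at an unadjusted p under 0.05 (limma) and changed no call. On the same arrays without the block, 8 probe sets and 4 genes were lower at that level (limma). There, 1 probe set was higher without the block and 2 with it.

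With each array left out in turn, 35 of the 76 genes kept their sign (23 lower and 12 higher). Among named large subunit genes that did not, the differences ran as Mrpl39 -0.034 to 0.23, Mrpl1 -0.047 to 0.35, Mrpl55 -0.066 to 0.26, Mrpl12 -0.10 to 0.37, Mrpl11 -0.061 to 0.27, Mrpl3 -0.14 to 0.062, Mrpl58 -0.14 to 0.016, Mrpl18 -0.24 to 0.21, Mrpl41 -0.46 to 0.012, Mrpl13 -0.16 to 0.13, Mrpl33 -0.15 to 0.10, Mrpl34 -0.33 to 0.045, Mrpl38 -0.085 to 0.36, Mrpl42 -0.24 to 0.21, Mrpl50 -0.12 to 0.22, Mrpl48 -0.13 to 0.058, Mrpl22 -0.16 to 0.096, Mrpl40 -0.21 to 0.047 and Mrpl46 -0.21 to 0.079. In the small subunit they ran as Mrps21 -0.51 to 0.010, Mrps18b -0.016 to 0.56, Mrps18a -0.021 to 0.29, Mrps18c -0.27 to 0.095, Mrps24 -0.47 to 0.17, Mrps26 -0.13 to 0.33, Mrps11 -0.24 to 0.37, Mrps12 -0.20 to 0.24, Mrps22 -0.26 to 0.16, Mrps25 -0.075 to 0.55 and Mrps9 -0.14 to 0.18. Other settings also turned signs, the cause of which was not tested; of these genes Mrps21 (-0.25), Mrpl57 (-0.22) and Mrpl38 (0.14) lay beyond 0.1 from 0 in the fit reported, and the others closer: 0.00086 for Mrpl58, 0.040 for Mrpl57, 0.10 for Mrpl13, 0.052 for Mrpl33, -0.066 for Mrpl38, 0.090 for Mrpl42, -0.087 for Mrpl50, 0.040 for Mrps21, -0.095 for Mrps11 and 0.044 for Mrps5 under averaging of each gene's probe sets and 2.6e-05 for Mrpl18 and 0.00086 for Mrpl42 under median centring. Under the replicate block the difference was 0.062 for Mrpl13, 0.021 for Mrpl33, 0.059 for Mrpl42, 0.041 for Mrpl22, 0.079 for Mrpl46 and -0.040 for Mrps11. Under a fit without _x_at and _s_at probe sets the difference was -0.21 for Mrpl38. Under array weights the difference was 0.0029 for Mrpl42. Under cyclic loess the difference was -0.024 for Mrps12 and -0.018 for Mrps9. The small number of arrays limits every value.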
